A study of Mus musculus with 6 samples.

Results

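Hedgehog signalling was examined through 8 genes of the ChP translatome, chosen by symbol: the ligand Shh, the receptor Ptch1, the inhibitor Hhip, the transducer Smo, the cytoplasmic inhibitor Sufu and the transcription factors Gli1, Gli2 and Gli3. All 8 are among the 24354 gene names of the table of FPKM, a level scaled for transcript length and for the size of the library. The data were TRAP-seq libraries from the ChP of FoxJ1:cre mice crossed with the bacTRAP line, in which ribosomes carry EGFP:L10a in cells with Cre activity, so that mRNA on tagged ribosomes can be pulled down. There were 3 samples of adult mice aged 60 days and 3 samples of embryos at E16.5, all of the same genotype. The study's methods describe pools of lateral ventricle ChP from several animals, whereas the design text speaks of 3 mice at each age. Replicate numbers recur at both ages without a stated shared animal or day. The Foxj1 promoter is active in cells with motile cilia, ChP epithelium among them, and other Foxj1-expressing cells can carry the tag.

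Hedgehog ligands are secreted proteins that bind PTCH1. Without ligand, PTCH1 holds SMO inactive, SUFU restrains the GLI proteins, and GLI3 in particular is cut into a repressor of transcription, a step that depends on the primary cilium. With ligand, SMO enters the cilium and GLI2, and then GLI1, activate target genes, among which are Ptch1, Hhip and Gli1 themselves. In the developing brain, SHH is known to be made by the epithelium of hindbrain ChP, where it acts on progenitors and on vascular cells.

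Of the 8 genes, Gli2 and Gli3 were lower in adult than in E16.5 ChP, while Ptch1 and Smo were at 13.1 FPKM or more in every sample of both ages. Gli2 and Gli3 had passed the filter for testing, a mean above 1 FPKM, through their E16.5 level alone. Gli3 lay between 10.1 and 13.1 FPKM in the E16.5 samples and at or next to 0 in all 3 adult samples. Shh, Hhip and Gli1 were below 0.5 FPKM in every library. Sufu was lower in each adult sample than in each E16.5 sample, but its change did not pass the test.

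The sequences before the starts of Gli2 and Gli3, which fell together, are shown with that of Ptch1, which was not lower in adult. They are RefSeq promoter windows of GRCm38.p6 (the build mm10), 5′ to 3′, cut to the 250 bases upstream of the start, with CpG dinucleotides in capitals. None of the bases shown lies in an exon that GENCODE annotates for the gene, and the windows of Gli3 and Ptch1 lie inside the annotated span of these genes, downstream of the start of a longer transcript.
Gli2, chr1:119053620-119053869, minus strand: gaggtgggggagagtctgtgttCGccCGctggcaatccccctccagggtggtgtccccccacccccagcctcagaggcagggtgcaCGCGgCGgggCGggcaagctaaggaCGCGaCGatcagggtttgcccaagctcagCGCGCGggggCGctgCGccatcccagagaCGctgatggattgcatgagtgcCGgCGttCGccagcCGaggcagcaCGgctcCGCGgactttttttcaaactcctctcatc
Gli3, chr13:15463473-15463722, plus strand: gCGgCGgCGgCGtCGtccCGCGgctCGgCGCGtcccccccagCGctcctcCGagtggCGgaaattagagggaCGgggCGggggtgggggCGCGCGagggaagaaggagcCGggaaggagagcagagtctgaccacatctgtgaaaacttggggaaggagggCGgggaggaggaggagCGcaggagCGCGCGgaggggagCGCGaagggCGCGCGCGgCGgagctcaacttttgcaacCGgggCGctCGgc
Ptch1, chr13:63565736-63565985, minus strand: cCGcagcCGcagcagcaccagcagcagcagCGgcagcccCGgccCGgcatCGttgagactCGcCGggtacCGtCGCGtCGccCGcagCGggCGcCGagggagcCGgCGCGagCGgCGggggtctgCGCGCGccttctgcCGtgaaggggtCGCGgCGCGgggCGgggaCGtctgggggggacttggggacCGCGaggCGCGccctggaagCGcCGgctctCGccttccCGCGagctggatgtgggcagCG

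The Gli2 window holds 22 CpG, that of Gli3 34 and that of Ptch1 41, where the median of all 32851 promoter windows is 6. Fewer CpG than in these windows were found in 85.2%, 96.5% and 98.9% of all windows, respectively. RefSeq windows were matched for 6 of the 8 genes. The GLI binding motif GACCACCCA, or its reverse complement TGGGTGGTC, was in none of the 300-base windows of the 6 genes, and 0.253% of all windows hold it. The motif was searched as these exact letters on both strands.

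Depth differed between the ages, which bears on every gene near 0. The deposited values carry no read counts, but low FPKM lay near whole multiples of the value of 1 read, from which adult replicates 1 and 2 were 1.26 and 2.85 times and the E16.5 libraries 4.01 to 5.09 times as deep as adult replicate 3. Of the 11601 genes with a mean FPKM above 1, 10.3% to 36.4% were listed at 0 in an adult library and 3.68% to 4.02% in an E16.5 library. An exact 0 can be a failed estimate, as Ttr, the main secretory product of ChP epithelium, was listed at 0 in all 3 E16.5 samples. The other 14 of 15 epithelial markers were above 0 in every library, Clic6 at 559 to 769 FPKM in adult and 740 to 810 FPKM at E16.5. The median SD of log2(FPKM + 1) was 0.98 among adult and 0.447 among E16.5 samples.

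The ligand was hardly present. Shh (chromosome 5, 28456815 to 28467256, minus strand) was listed at 0 in adult replicates 1, 2 and 3 and in E16.5 replicates 1 and 3, and was at 0.103 FPKM in E16.5 replicate 2, which corresponds to about 4.27 reads over its transcript of 2847 bases. No difference between the ages can be read from these values. Were 3 reads taken as the limit that a count of 0 allows, Shh could stand at up to 0.129 to 0.367 FPKM in the adult libraries and at up to 0.0777 to 0.0916 FPKM in the 2 E16.5 libraries listed at 0. These limits cover counting error only and assume that 0 means no read. The other mammalian ligands, Ihh and Dhh, were listed at 0 in all 6 samples.

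Ptch1 (chromosome 13, 63508328 to 63573598, minus strand), the receptor that restrains SMO, was at 29.0, 21.6 and 24.3 FPKM in adult replicates 1, 2 and 3 and at 13.1, 13.6 and 19.1 FPKM in E16.5 replicates 1, 2 and 3. The 3 adult values were all above the 3 embryonic ones, with means of 25.0 ± 3.73 against 15.3 ± 3.34 FPKM (SD, n = 3 each). On the log2(FPKM + 1) scale the change, adult minus E16.5, was 0.68 (standard error 0.40, 95% interval -0.24 to 1.61), and it did not pass the test (limma, Benjamini-Hochberg adjusted p = 0.274). An exact permutation test, two-sided, gave p = 0.1, the smallest that 3 samples against 3 allow. The change was 1.54 above the median of all genes tested (-0.86). It turned to -0.11 when each sample was rescaled to the same sum of FPKM, of which the microRNA gene Mir6236 took 32.7% to 51.7% in the adult and 13.3% to 15.0% in the E16.5 libraries.

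Hhip (chromosome 8, 79965851 to 80058006, minus strand), a membrane protein that binds and sequesters the ligand, was listed at 0 in all 6 samples. Its transcript is 9074 bases long, so that 3 reads would amount to 0.0215 to 0.0273 FPKM in the E16.5 libraries and 0.0384 to 0.109 FPKM in the adult libraries.

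Smo (chromosome 6, 29735503 to 29761365, plus strand), the seven-pass membrane protein that carries the signal onward, was at 19.94, 23.4 and 25.9 FPKM in the adult replicates and at 26.8, 27.9 and 19.95 FPKM in the E16.5 replicates. The ages overlapped, at 23.1 ± 3.01 and 24.9 ± 4.31 FPKM (SD, n = 3 each). The change was -0.10 on the log2(FPKM + 1) scale (standard error 0.37, limma adjusted p = 0.874), with a 95% interval from -0.96 to 0.76 that leaves room for a change in either direction. Its sign turned under median-ratio scaling (0.23) and quantile normalization (0.33).

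Since the scaling of whole samples moved these 2 genes, they were also ranked within each sample. Among all genes tested, 83.0%, 73.8% and 77.0% had a lower FPKM than Ptch1 in the adult samples. At E16.5 these shares were 52.6%, 53.2% and 64.8%. For Smo the shares were 75.5%, 75.8% and 78.3% in adult and 73.2%, 73.5% and 65.9% at E16.5. Ptch1 thus ranked higher in each adult sample than in each E16.5 sample, by 21.1 percentage points on average, and Smo by 5.67. Genes at 0 add to these shares, and more genes were at 0 in the adult libraries. Over the 6562 genes above 0 in every sample, a set chosen after the data were seen, the difference was 22.6 points for Ptch1 and 3.13 for Smo, for which the ages then overlapped.

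**Figure D1:**
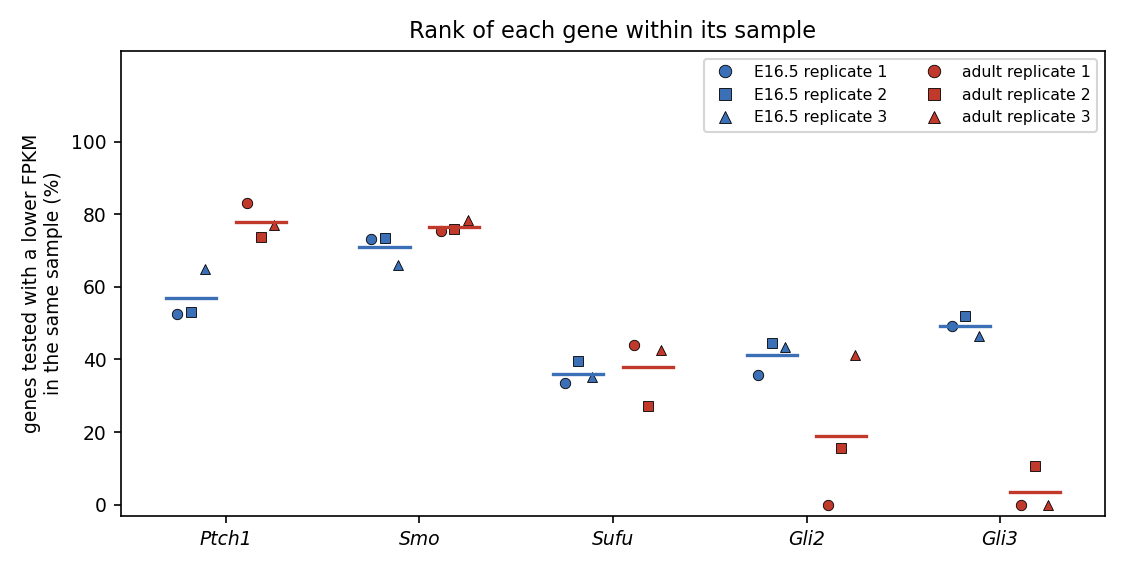
Rank of the 5 tested Hedgehog genes within each sample: the y axis gives the percentage of all genes tested that had a lower FPKM in the same sample, with a symbol for each replicate and a bar for the mean of each age. Ptch1 lies at 73.8% to 83.0% in adult and 52.6% to 64.8% at E16.5, and Gli3 at 0% to 10.8% in adult and 46.5% to 52.1% at E16.5. For Gli2 the ages overlap, at 0% to 41.3% in adult and 35.7% to 44.6% at E16.5.

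The ratio of Ptch1 to Smo within a sample is nearly free of scaling. As log2 of the FPKM, each with 0.1 added, it was 0.537, -0.116 and -0.096 in the adult replicates and -1.03, -1.03 and -0.0614 in the E16.5 replicates. The ages overlapped through E16.5 replicate 3. The mean difference of 0.815 had an exact two-sided permutation p of 0.3 (n = 3 each), which stayed at 0.3 after adjustment over 4 tests within samples.

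Sufu (chromosome 19, 46396896 to 46488804, plus strand), which binds GLI proteins and keeps them from the nucleus, was at 4.49, 2.97 and 0.831 FPKM in the adult replicates and at 6.55, 8.29 and 6.54 FPKM in the E16.5 replicates. All adult samples lay below all E16.5 samples, with adult replicate 3, the shallowest library, the lowest. The log2 change of -1.24 (standard error 0.67, 95% interval -2.81 to 0.32) did not pass the test (limma adjusted p = 0.244). It was -0.79 without adult replicate 3 and turned to 0.17 under quantile normalization.

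The GLI factors are the end of the pathway. Gli1 (chromosome 10, 127329882 to 127341974, minus strand), an activator that is itself a target of the pathway, was listed at 0 in all 3 adult samples and was at 0.438, 0.0913 and 0.0392 FPKM in E16.5 replicates 1, 2 and 3. These values correspond to about 20.9, 5.54 and 2.2 reads over a transcript of 4057 bases. In the adult libraries 3 reads would amount to 0.0883 to 0.252 FPKM, so that the level of E16.5 replicate 2 lay under this limit in 2 of the 3 adult libraries and that of E16.5 replicate 3 in all 3. Gli1 was below the filter of 1 FPKM and was not tested, and no fold change is given.

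Gli2 (chromosome 1, 118834132 to 119053619, minus strand), the main activator of target genes on SMO signalling, was at 7.17, 9.98 and 8.96 FPKM in the E16.5 replicates. In the adult replicates it was listed at 0 in replicate 1 and was at 0.728 and 0.401 FPKM in replicates 2 and 3, or about 41.3 and 7.98 reads over 6637 bases. The groups did not overlap in FPKM, and the lowest E16.5 sample was many times above the highest adult sample. By rank within the sample they did overlap. Of all genes tested, 0%, 15.7% and 41.3% had a lower FPKM than Gli2 in adult replicates 1, 2 and 3. At E16.5 these shares were 35.7%, 44.6% and 43.3%. In adult replicate 3, 36.4% of the genes tested were listed at 0, and these add to its share. Its change on the log2(FPKM + 1) scale, -2.84 with a standard error of 0.61 and a 95% interval from -4.26 to -1.42, passed the test (limma adjusted p = 0.0311, exact permutation p = 0.1). Gli2 was tested only because of its E16.5 level, as its adult mean was 0.376 FPKM. The call was lost under several alternatives. The limma adjusted p was 0.0683 without adult replicate 1 and 0.0930, 0.0951 and 0.0868 without E16.5 replicates 1, 2 and 3. It was 0.0616 and 0.140 at pseudocounts of 0.1 and 0.01, and 0.306 under quantile normalization, where the change was -1.20. Without E16.5 replicates 1, 2 and 3 the change was -2.96, -2.75 and -2.82. The share of all genes called lower in adult then also fell, from 8.83% to between 0.140% and 0.565%.

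Gli3 (chromosome 13, 15463235 to 15730026, plus strand), whose processed form is the main repressor of the pathway, was at 11.7, 13.1 and 10.1 FPKM in the E16.5 replicates. In adult replicate 2 it was at 0.0137 FPKM and in the other two adult samples it was listed at 0. The value of adult replicate 2 is about 0.962 of a read over its 8170 bases. The E16.5 values correspond to about 1160, 1640 and 1170 reads. Whether the 0 in adult replicates 1 and 3 stands for no read or for a failed estimate cannot be told from FPKM. Gli3, like Gli2, was tested only because of its E16.5 level. The log2 change of -3.65 (standard error 0.58, 95% interval -5.01 to -2.29, limma adjusted p = 0.0136, exact permutation p = 0.1) understates a fall to near 0, since the pseudocount sets it. At pseudocounts of 0.1 and 0.01 it was -6.81 and -9.76, and it was -2.39 under quantile normalization, where it still passed the test (adjusted p = 0.0372). Gli3 passed the test in 13 of 16 alternatives and fell short when any 1 of the E16.5 samples was left out (for replicates 1 to 3, adjusted p = 0.0628, 0.0632 and 0.0570), when the share of all genes called lower in adult also fell from 8.83% to 0.140% to 0.565%.

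**Figure D2:**
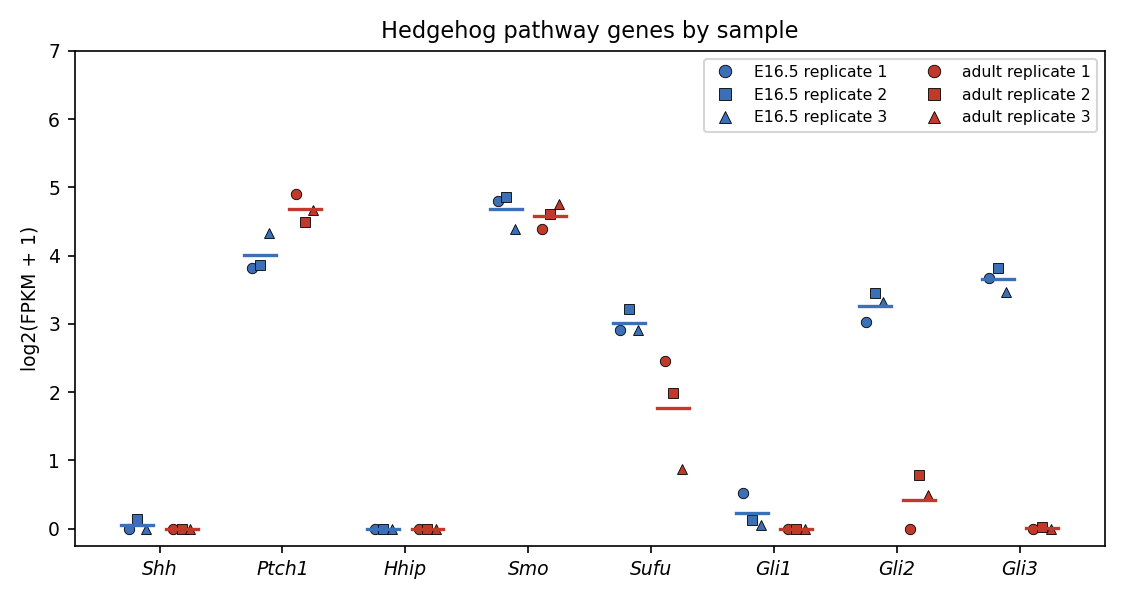
Levels of the 8 Hedgehog genes in each sample as log2(FPKM + 1): blue symbols are E16.5 and red symbols adult samples, the shape gives the replicate, and bars are the means of each age. Ptch1 and Smo stay high at both ages, Gli2 and Gli3 are high in the 3 E16.5 samples and near 0 in the 3 adult samples, and Shh, Hhip and Gli1 are near 0 throughout.

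Together, 2 of the 5 members tested were called lower in adult and 0 higher in limma (0 without adjustment), where 8.83% and 2.12% of all genes tested were called. For 3 of the 5, Sufu, Gli2 and Gli3, every adult sample lay below every E16.5 sample, as for 31.0% of all genes tested, and for 1, Ptch1, every adult sample lay above, as for 7.39%. Gli2 and Gli3 had passed the filter through their E16.5 level alone, so that they had to differ, and the counts support nothing on the pathway as a whole. A range of 5 to 20 FPKM at E16.5, set after the values of Gli2 and Gli3 were seen, held 4542 genes tested. Of these, 9.53% were below 1 FPKM in all 3 adult samples, as Gli2 and Gli3 were, and 20.3%, 8.48% and 37.6% were listed at 0 in adult replicates 1, 2 and 3. A lower log2 change than that of Gli2 was seen in 7.44% of them, and a lower one than that of Gli3 in 1.30%.

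**Figure D3:**
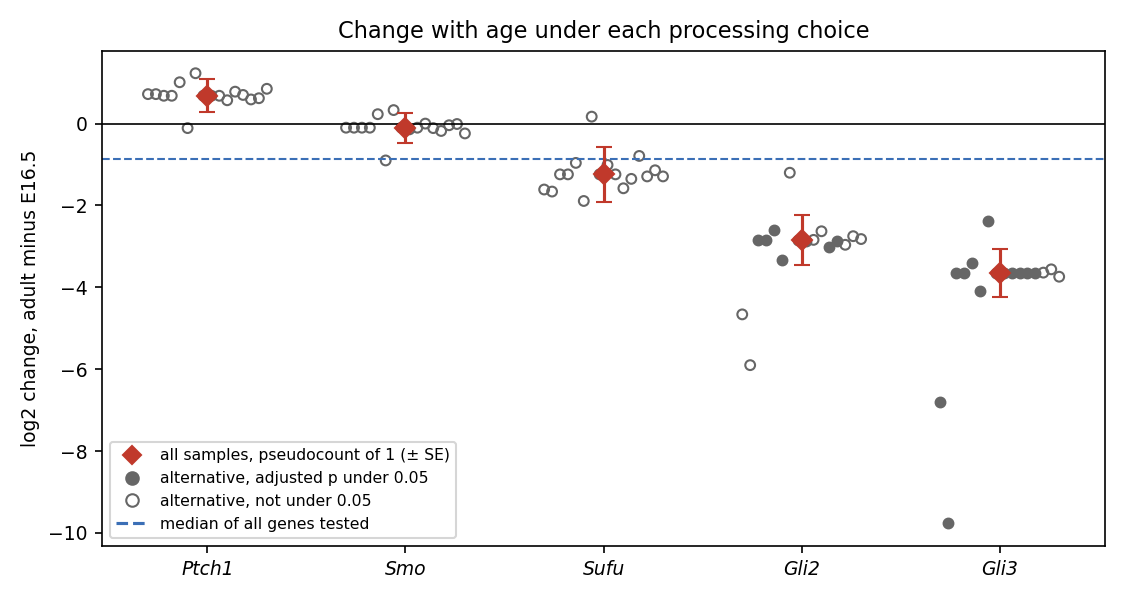
Log2 change (adult minus E16.5) of the 5 tested genes: red diamonds are the values with all samples and a pseudocount of 1, with the standard error, and grey circles are the 16 alternatives, filled where the adjusted p was under 0.05. Gli2 and Gli3 lie below 0 in every alternative, and Ptch1, Smo and Sufu change sign under at least 1 scaling and are filled under none.

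The order of levels changed with age. At E16.5, Smo was the highest of the 8 by FPKM, which is scaled by length, and lay above Ptch1 in each sample. Next came Gli3, whose range touched that of Ptch1, then Gli2, below Gli3 in each sample, and Sufu, which overlapped Gli2. In adult, Ptch1 and Smo headed the order with overlapping ranges, Sufu followed between 0.831 and 4.49 FPKM, and Gli2 lay below it at 0 to 0.728 FPKM. Of the summed FPKM of Gli1, Gli2 and Gli3 at E16.5 (19.1 to 23.2 FPKM), Gli3 held 56.7% ± 3.88, Gli2 42.4% ± 4.94 and Gli1 0.954% ± 1.14 (SD, n = 3). In adult the sum was 0 in replicate 1 and at most 0.741 FPKM in the others, where Gli2 held 98.2% and 100% of it. With 2 adult samples against 3 an exact permutation test cannot go below 0.2, and this was its p for each of the 3 shares (adjusted p = 0.267 over 4 tests).

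The level of Gli2 and Gli3 was lower in adult, as were summed markers of several other cell types. The part of these markers in the result was not tested. Of all genes tested, limma called 8.83% lower in adult, 31.0% lay lower without overlap, and the median log2 change was -0.86. This median was -1.61 for mesenchyme, -2.04 for neurons and progenitors, -2.15 for cell cycle and -1.93 for multiciliated markers. For pericytes, endothelium and macrophages it was -0.29, -0.01 and -0.33. More genes were also listed at 0 in the adult libraries. In bulk TRAP libraries, fewer cells of a type and less RNA per cell cannot be told apart. The summed FPKM of 14 mesenchyme and fibroblast markers was 103 to 137 at E16.5 and 21.9 to 47.3 in adult, with 1 of 10 tested lower in adult (Pdgfra). Postn, the highest of them, was at 31.9, 24.6 and 44.9 FPKM at E16.5 and 8.28, 17.0 and 0 FPKM in adult (limma adjusted p = 0.133). Lum, Tcf21, Twist1, Foxc1 and Foxc2 were listed at 0 in every adult library, but were hardly present at E16.5 either. There Lum, Foxc1 and Foxc2 were at 0.298 FPKM or less and Tcf21 at 0.308 to 1.17 FPKM. Twist1 was at 7.13 FPKM in E16.5 replicate 2 and listed at 0 in the other E16.5 samples. Of 12 markers of neurons and neural progenitors the sum was 158, 44.2 and 49.6 in E16.5 replicates 1, 2 and 3 and 1.27 to 14.4 in adult. For these, 1 of 6 tested was lower (Map2), and 8 were listed at 0 in every adult library, Nes, Dcx, Stmn2 and Eomes among them. Nes was at 5.31, 0.139 and 0.4 FPKM and Dcx at 8.32, 0.598 and 0.00772 FPKM in E16.5 replicates 1, 2 and 3. Stmn2 was at 25.3 FPKM in E16.5 replicate 1 and at 0 in the other E16.5 samples, and Eomes was at 0 in all of them. Gli1 was highest in E16.5 replicate 1, where the sum of these neuron and progenitor markers was highest, and Gli2 was lowest there. Of 12 cell cycle genes the sum was 55.1 to 103 at E16.5 and 22.9 to 49.8 in adult, and 1 of 6 tested (Top2a) was lower. Top2a was listed at 0 in every adult library and had passed the filter through its E16.5 level alone. Of the 6 changes, 5 were negative and 1, that of Ccna2 (1.13), was positive. Of 11 markers of multiciliated cells the sum was 2100 to 2550 at E16.5 and 340 to 522 in adult, and 4 of 9 tested were lower. Among these was Foxj1, whose promoter drives Cre, at 154 to 208 FPKM at E16.5 and 37.9 to 62.4 FPKM in adult. Endothelial markers summed to 17.6 to 42.3 FPKM at E16.5 and 0.489 to 20.2 FPKM in adult. The highest of them, Kdr, was at 15.95, 12.3 and 36.7 FPKM at E16.5 and at 2.04, 7.75 and 0.435 FPKM in adult, without overlap (log2 change -2.60, limma adjusted p = 0.0809). Kdr made up most of the endothelial sum at E16.5. Cldn5 and Egfl7, the other endothelial markers tested, had log2 changes of 1.13 and -0.01. Markers of pericytes and smooth muscle summed to 8.28 to 11.6 FPKM at E16.5 and 4.85 to 9.26 FPKM in adult, and those of macrophages to 0.584 to 8.48 FPKM and 0.0695 to 7.35 FPKM. In these 3 lists limma called 0 of 9 tested genes, and Kdr was the only 1 with an unadjusted p under 0.05. The pericyte marker Cspg4 lay higher in every adult sample, at 3.90 to 5.54 FPKM against 0.680 to 2.61 FPKM at E16.5 (log2 change 1.36). Myh11 and Notch3, tested in the same list, had log2 changes of -0.29 and -1.20. Of 15 epithelial markers, 7 were higher in adult, a count that includes Ttr with its 0 at E16.5, and 3 (Otx2, Lmx1a and Kcne2) were lower. Enpp2, the most abundant of them after Ttr, was at 14900 to 18700 FPKM in adult and 242 to 303 FPKM at E16.5.

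The wider pathway was taken from a list of 48 symbols, of which 46 are in the table and 40 were tested. In limma 1 was lower and 0 were higher in adult (11 and 2 without adjustment), against 8.83% and 2.12% of all genes tested. Their median log2 change of -0.68 was near that of all genes tested (-0.86). The ages did not overlap in 18 genes that were lower and 4 that were higher in adult, beside 31.0% and 7.39% of all genes tested.

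The gene that passed was Fuz, a planar cell polarity effector needed to build cilia. It was at 10.5, 11.2 and 10.3 FPKM in the adult replicates and at 44.0, 41.8 and 27.7 FPKM in the E16.5 replicates, with no overlap. The log2 change of Fuz, -1.71 with a standard error of 0.40 (limma adjusted p = 0.0370), no longer passed in 8 of 16 alternatives, among them leaving out adult replicate 1 (adjusted p = 0.0657) and each embryonic sample in turn (0.141, 0.137 and 0.0818), median-ratio scaling (0.0707), quantile normalization (0.0970) and limma without a trend (0.0523). Without an embryonic sample the share of all genes called lower in adult fell too, as given for Gli2. Intu, which acts with Fuz in the same ciliary complex and is named after its values were seen, lay the other way, at 29.9, 32.1 and 51.8 FPKM in adult and 13.8, 12.3 and 13.5 FPKM at E16.5. Its change of 1.41 had a limma adjusted p of 0.0606. Of the 12 ciliary regulators tested, Fuz alone was called, and their median log2 change was -1.54. By the mean over all 6 samples Iqce, which anchors a ciliary complex, was the highest of them, although Intu was higher in each adult sample. Iqce was at 3.32, 25.7 and 8.40 FPKM in adult and 35.6, 43.8 and 51.6 FPKM at E16.5 (log2 change -2.10, limma adjusted p = 0.0824).

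On the ligand side, Scube3, of the family that helps to release lipid-modified ligand, had 44.2 to 55.3 FPKM in adult and 29.3 to 45.9 FPKM at E16.5, a log2 change of 0.29 (95% interval -0.49 to 1.07, limma adjusted p = 0.573). Its relatives Scube1 and Scube2, and Hhat, which attaches palmitate to the ligand, were below 1 FPKM in every sample. Of the 4 co-receptors tested none was called by limma. Boc, which binds SHH beside PTCH1, ranged from 4.89 to 21.2 FPKM in adult and from 2.42 to 8.79 FPKM at E16.5. Cdon, a close relative of Boc and named after its values were seen, was at 5.09, 3.63 and 0 FPKM in adult and at 12.2, 9.38 and 14.7 FPKM at E16.5, without overlap, with a log2 change of -2.09 that did not pass (limma adjusted p = 0.134, unadjusted p = 0.0362). Lrp2, also seen first, was listed at 0 in all adult samples and was at 3.64, 2.03 and 3.53 FPKM at E16.5. Its limma adjusted p was 0.0541, and it was called lower at both other pseudocounts, under both other filters, without a trend and after rescaling to the same sum. Lrp2 had passed the filter of 1 FPKM through its E16.5 level alone and was named for its values, so that these calls add no support.

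Downstream of SMO, none of the 8 kinases and 6 GLI turnover factors tested passed in limma. The kinase Ulk3, named after its values were seen, was at 0, 1.03 and 0 FPKM in adult and at 2.92, 6.57 and 8.68 FPKM at E16.5, without overlap (log2 change -2.38, limma adjusted p = 0.0628), and it was called without a trend and after rescaling to the same sum. Ulk3, too, had passed the filter through its E16.5 level alone, with an adult mean of 0.344 FPKM, so that these calls add no support. Csnk1a1, a kinase that phosphorylates GLI proteins, had the highest mean FPKM of the kinases over all 6 samples, at 56.5 to 96.1 FPKM in adult and 113 to 143 FPKM at E16.5 (log2 change -0.80, limma adjusted p = 0.125). Cul3, the scaffold of a ubiquitin ligase that acts on GLI proteins with Spop, had 65.1 to 177 FPKM in adult and 81.4 to 100.4 FPKM at E16.5 (log2 change 0.12, limma adjusted p = 0.859), and its sign turned under 3 alternatives. Mgrn1, a ubiquitin ligase that lowers SMO at the surface, had 16.4 to 24.3 FPKM in adult and 29.2 to 35.8 FPKM at E16.5 (log2 change -0.65, limma adjusted p = 0.252). Zic2, a zinc finger factor related to the GLI family, had 33.4 to 48.2 FPKM in adult and 57.9 to 74.1 FPKM at E16.5 (log2 change -0.66, limma adjusted p = 0.188). The genes with the highest mean over all samples in 2 other roles did not pass either, with log2 changes of 0.79 for Arrb1, an arrestin that takes part in SMO trafficking, and -0.68 for Glis2, a GLI-related zinc finger factor (limma adjusted p = 0.276 and 0.328).

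**Figure D4:**
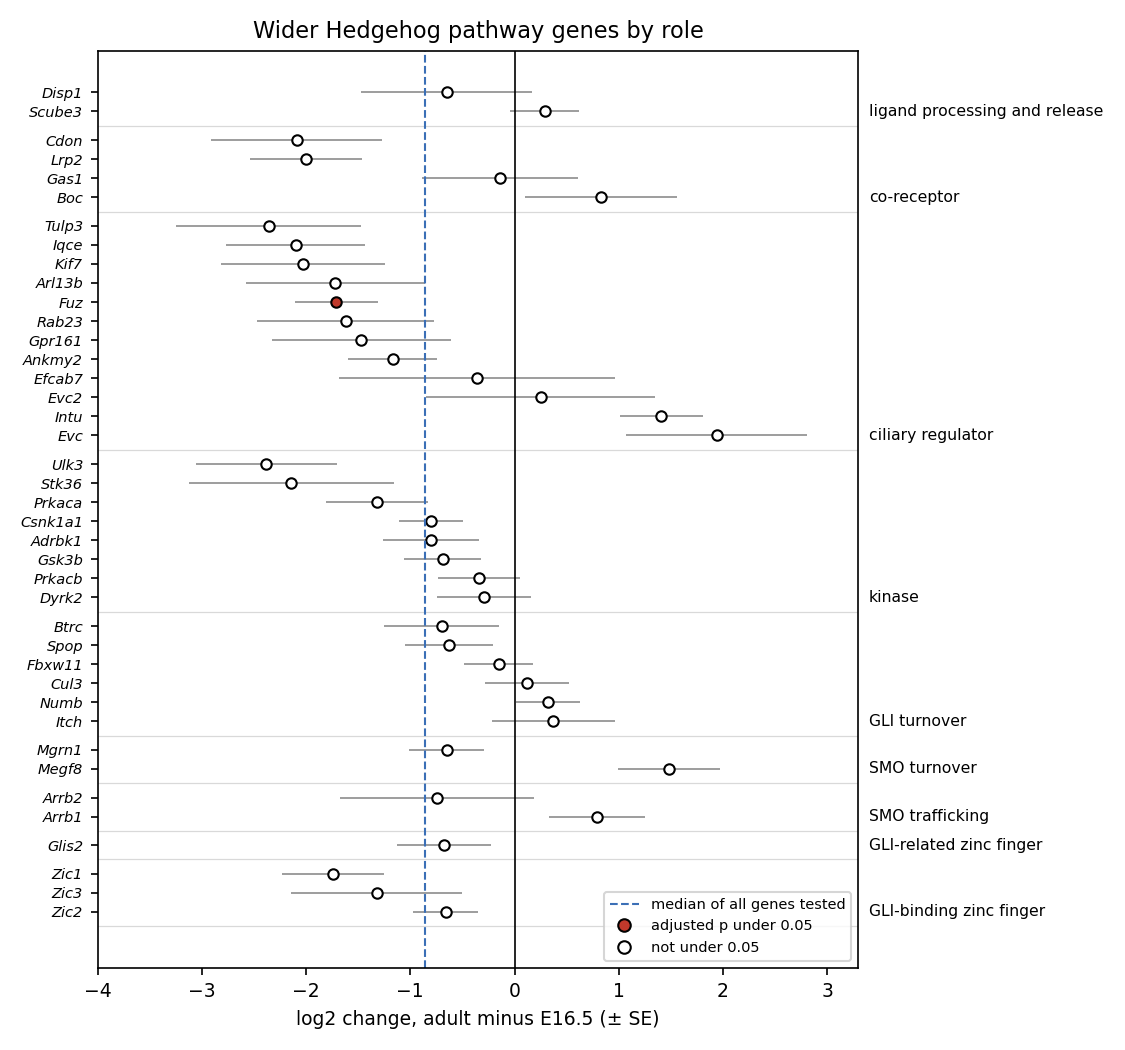
Log2 change (adult minus E16.5) with its standard error of the 40 tested genes of the wider Hedgehog pathway, grouped by role, with the median of all genes tested as a dashed line. Fuz is the filled point, the only 1 of the 40 with an adjusted p under 0.05, and the value of Lrp2, listed at 0 in every adult sample, depends on the pseudocount.

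Of 18 symbols of genes described as GLI targets, 17 are in the table and 7 were tested, among them Ptch1. Among those not tested were Gli1 and Hhip, as well as the transcription factors Foxf1, Foxf2, Foxl1, Foxa2, Nkx2-2, Osr2 and Olig2, and all of these but Gli1 and Olig2 (3.35 FPKM in E16.5 replicate 1 alone) were listed at 0 in every sample. By limma 1 of the 7, Ccnd1, was lower in adult and 0 were higher (1 and 1 without adjustment), beside 8.83% and 2.12% of all genes tested, with a median log2 change of -0.63 beside -0.86 for all genes. Ccnd1, which encodes cyclin D1, was at 0, 2.45 and 0 FPKM in adult and at 13.6, 17.2 and 8.11 FPKM at E16.5 (log2 change -3.15, standard error 0.76, limma adjusted p = 0.0410), and it passed in 5 of 16 alternatives, over which the adjusted p ran from 0.0124 to 0.137. Leaving out adult replicate 1 gave an adjusted p of 0.0850, and leaving out E16.5 replicate 1, 2 or 3 gave 0.134, 0.137 and 0.0984. Without an E16.5 sample the share of all genes called lower in adult fell too, as given for Gli2. With an adult mean of 0.816 FPKM, Ccnd1 had passed the filter of 1 FPKM through its E16.5 level alone. Ccnd2, the paralogue of Ccnd1 encoding cyclin D2, lay the other way, at 225, 200.4 and 233 FPKM in adult and 102, 138 and 110.4 FPKM at E16.5, without overlap. Ccnd2 had a log2 change of 0.91 with a standard error of 0.25 (limma adjusted p = 0.0546), which passed at pseudocounts of 0.1 and 0.01, under median-ratio scaling and under quantile normalization (adjusted p = 0.0221 to 0.0475), while it was 0.08 after rescaling to the same sum. Mycn was listed at 0 in all adult samples and was at 5.83, 0.950 and 0.170 FPKM at E16.5. The remaining genes tested, Bcl2, Bmi1 and Sfrp1, had log2 changes of -1.28, -0.63 and -0.39 (limma adjusted p = 0.225, 0.672 and 0.388).

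The genes most like each tested member over the 6 samples were found by Pearson's r of log2(FPKM + 1), as a description without a test. They were Zfp142 for Ptch1 (r = 0.9923), Crk for Smo (0.9862), Slc25a13 for Sufu (0.9986), Sssca1 for Gli2 (0.9998) and Spag8 for Gli3 (0.9999). With 2 groups of samples such values were common for the members that lay lower in every adult sample. Of 11596 genes, 1333 had an r above 0.9 with Gli2, 1281 with Gli3 and 1024 with Sufu, which did not pass the test. With Ptch1 and Smo, 100 and 31 genes had such an r.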

How the data were processed

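The 6 TRAP-seq libraries of mouse ChP, 3 for each age, took their group from the labelled age. The authors aligned single-end reads to mm10 with STAR (2.4.0 in the submitters' processing notes) and made the deposited FPKM with Cuffquant of Cufflinks. The annotation release is not given in the sources used here, and no read counts were analysed.

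No further scaling was applied. A gene was tested where its mean FPKM over the 6 samples exceeded 1, which held for 11601 of 24354. The test was limma (version 3.58.1, R version 4.3.3) on log2(FPKM + 1), using the intensity trend, without covariates. Benjamini-Hochberg adjustment ran over every gene tested, the threshold was 0.05, and each change is the adult level minus the E16.5 level. Whether samples came from separate animals is given only as pools, so that p-values measure the spread between these samples. Single values within samples were compared by exact two-sided permutation tests (scipy 1.17.1). The value of 1 read was read from 67 to 87 low values per library among 2523 coding genes that have 1 transcript, longer than 1000 bases, taking its length minus 200 bases. Between 71.3% and 87.7% of these values were whole to within 0.1 read (20% by chance). Reads of members were set from the longest coding transcript in GENCODE M21 and are approximate.

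The members and lists were chosen with earlier results of these data known. Named genes were all members, the called genes and the most abundant gene of each role in the wider and target lists, the most similar gene of each member, and the 2 most abundant markers of each list. Of these markers the text names some, with others chosen after their values were seen, and gives the lists by their sums. Alternatives were 2 pseudocounts, 2 filters, 3 scalings, limma without a trend or with sample weights, a replicate block and each sample left out.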

Additional observations from a re-analysis of the deposited data

How the results depend on the processing

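Gli2 and Gli3 kept their direction in all 16 alternatives, which adds no support, as both had passed the filter through their E16.5 level alone. The count of members called lower in adult, 2 with all samples, was 1 (Gli3) at pseudocounts of 0.1 and 0.01, under quantile normalization and with a replicate block, and 0 to 2 with each sample left out. That of the wider pathway, 1 with all samples, was 2 at both pseudocounts, without a filter, with a filter of 0.1 and without a trend, 16 after rescaling to the same sum, 0 under median-ratio scaling, quantile normalization and the replicate block, and 0 to 6 with each sample left out. Its count of genes higher in adult, 0 with all samples, was 3 under quantile normalization, 1 under median-ratio scaling and 0 to 1 with each sample left out. Of the GLI targets, the 1 gene called lower became 2 after rescaling to the same sum, 0 at both pseudocounts, under both filters, under median-ratio scaling and quantile normalization and with the block, and 0 to 2 with each sample left out, while the 0 called higher became 1 at both pseudocounts and under both of those scalings.

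Signs turned after rescaling to the same sum for Ptch1 (-0.11), Scube3 (-0.53) and Cul3 (-0.71), under median-ratio scaling for Smo (0.23), under quantile normalization for Smo (0.33), Sufu (0.17), Bmi1 (1.02) and Sfrp1 (0.06), and with sample weights for Cul3 (-0.12). Without adult replicate 3 they turned for Cul3 (-0.28) and Bmi1 (0.32), which ran up to 0.43 and down to -1.34 when other samples were left out. No member was called higher under any alternative. The cause was not tested. The rank of Sufu, 1.87 points higher in adult over all genes tested, was -7.42 over genes above 0 in every sample, a set added after seeing the data. The median of all genes tested moved from -0.86 to -0.57, -1.48 and 0.01 under median-ratio scaling, the same sum and quantile normalization.

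Same-numbered samples hardly deviated together (r = 0.000895, 0.0439 and 0.0150). Adult replicates 2 and 3 correlated best with the E16.5 sample of their own number, and adult replicate 1 did not. With so few samples these values cannot tell whether same-numbered samples shared a day or another step. With the replicate block the adjusted p was 0.0766 for Gli2, 0.0876 for Fuz and 0.0692 for Ccnd1. The adult libraries were shallower, and a gene near 0 there rests on a few reads or none.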
